A study of Mus musculus with 2 samples.

Results

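The 7969 sites described here are adenosines outside the DRACH motif that both GLORI libraries of newborn mouse brain listed, 1 made from the cerebellum and 1 from the cerebrum. They were taken from 212798 distinct autosomal sites in either library, of which 46732 were in both lists, 38701 of those in DRACH. They make up 27.6% of the autosomal sites outside DRACH in the cerebellum list and 8.23% of those in the cerebrum list. N6-methyladenosine (m6A) in mRNA is written mainly by the METTL3-METTL14 complex, which prefers the 5-mer DRACH. Its middle A is the one methylated, a purine (R) comes before it and C after it, and the outer letters stand for any base but C (D) and any base but G (H). These marks are known to be dense near stop codons and in long exons, sparse near exon junctions, and abundant in transcripts of the developing brain. Other enzymes write N6-methyladenosine in other contexts: METTL16 in the hairpins of Mat2a mRNA and in U6 small nuclear RNA, METTL4 in U2 small nuclear RNA, and PCIF1 at the first transcribed base next to the cap. In GLORI, deamination with glyoxal and nitrite makes an unmethylated adenosine read as G, and a methylated one goes on being read as A.

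Both libraries came from poly(A)+ RNA of a female F1r mouse at postnatal day 0, F1r being the cross in which C57 is the maternal and PWK the paternal strain. Apart from the tissue the groups shared these features. Each tissue was 1 library, so no test between tissues could be made, and nothing separates the tissue from the library. Members were selected on the calls and the reference: a site was a member when the same position and strand stood in both lists, the C57 reference held A there, and the reference 5-mer was not DRACH. These choices used the calls themselves, so membership is a description, and 62 autosomal sites in both lists where the reference has no A were left out. The lists hold no methylation rate and no read count, and the depth behind a site is unknown. The 5-mer was read from the C57 genome only, and a base that differs in PWK could change it. The range of each share below is its 95% Wilson interval, which treats sites as independent and covers counting error over sites only. The name of each deposited list gives the tissue as labelled, but both names also carry the same short code, which may stand for cerebellum and which no source used here explains. As a check of the labels, a list of 13 forebrain genes held 380 cerebrum sites (0.208% of the library) and 35 cerebellum sites (0.0455%), and a list of 10 hindbrain genes held 82 (0.0449%) and 59 (0.0767%).

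The sequences around the 8 most frequent 5-mers are shown first, since the base changes against DRACH carry most of what follows. Each is 1 member on an exon of a coding transcript, in the gene with the most members of that 5-mer (the first in chromosome order where genes tie), read 5′ to 3′ on the site strand of GRCm38 with the 5-mer in capitals and the called A at its centre.
Rev3l, 3′ UTR, chr10:39821356-39821376, plus strand: aaaggaaaGTACTtactccat
Grm5, CDS, chr7:87602877-87602897, plus strand: tttataagGGATTccctcatc
Lrrc4b, CDS, chr7:44462365-44462385, plus strand: cccatcacGGACGtgacggag
Grm5, CDS, chr7:87602675-87602695, plus strand: ccaccaacCAACTgtggacaa
Nav1, 3′ UTR, chr1:135439803-135439823, minus strand: agggatatATACTatacgtct
Plekha6, 3′ UTR, chr1:133299916-133299936, plus strand: tgaagcctGCACTgtcatgtt
Pcsk2, CDS, chr2:143793178-143793198, plus strand: catgtggaCCATCtccatcaa
Igsf3, 3′ UTR, chr3:101460050-101460070, plus strand: ctcccagcAGACGttgcccat
In 7 of these 8 the 5-mer misses DRACH by 1 base. The exception is that of Pcsk2, which misses it by 3 and holds A followed by TC. Rev3l encodes the catalytic subunit of a translesion DNA polymerase and carried 5 members with GTACT. Its 3′ UTR label holds for the longest complete coding isoform, where the site is in exon 14 of 33, 1842 nt past the stop codon. An isoform with a later stop codon could give this internal exon another label. Grm5 encodes a metabotropic glutamate receptor and carried 6 members with GGATT and 4 with CAACT.

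Most members were near misses of DRACH. Exactly 1 base differed at 5022 of them, or 63.0% (62.0% to 64.1%), while 1947 differed at 2, 927 at 3 and 73 at 4 of the flanking bases. Among uncalled adenosines outside DRACH within 50 nt on the same strand, 37.5% were a single base away. The difference was 25.5 percentage points (24.5 to 26.6) and had the same direction on 19 of 19 autosomes. Sites outside DRACH listed in a single library lay near the uncalled level, at 39.9% (39.2% to 40.6%) for those only in the cerebellum list and 38.5% (38.2% to 38.8%) for those only in the cerebrum list. The members exceeded these by 23.1 points (21.9 to 24.4) and 24.5 points (23.4 to 25.6), again on 19 of 19 autosomes each.

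The single differing base was unevenly placed. It stood directly before the A at 2037 members, directly after it at 1523, at the last base of the 5-mer at 886 and at the first at 576. The class with it directly after the A was 19.1% of members, below the 27.5% of uncalled adenosines nearby. Single-list sites had 25.9% (cerebellum) and 24.5% (cerebrum) in that class. A G in place of H at the last base was 19.1-fold more frequent among members than among the uncalled adenosines nearby, at 11.1% against 0.582%. A T directly before the A was 5.89-fold more frequent, at 17.9% against 3.04%, while C in that place was 1.65-fold more frequent. A C at the first base was 4.37-fold more frequent, at 7.23% against 1.66%. After the A, a T in place of C was 1.90-fold more frequent, whereas A there stood at 0.252-fold and G at 0.287-fold. These ratios compare shares of all members with shares of all uncalled adenosines outside DRACH within 50 nt.

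**Figure D1:**
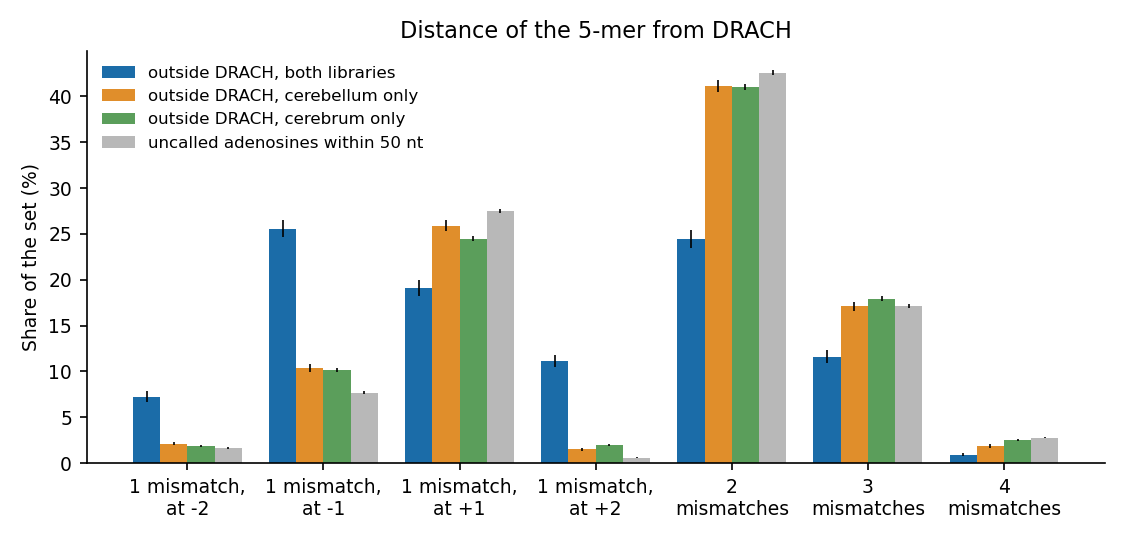
Share of each set of adenosines (y axis, %) by how its 5-mer differs from DRACH (x axis, position counted from the called A), with 95% Wilson intervals. Shared sites outside DRACH exceed the other sets where the only mismatch is at -2, -1 or +2, and lie below them where it is at +1. They also lie below them at 2 or more mismatches, where 24.4% of them differ at 2 bases against 42.6% of uncalled adenosines.

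Named by 5-mer, the commonest was GTACT with 761 members (9.55%, 49.9-fold over uncalled adenosines nearby), before GGATT with 624 (32.7-fold) and GGACG with 407 (73.2-fold). Next came CAACT with 331 members, ATACT with 291 and GCACT with 285, at 11.8-fold, 12.7-fold and 10.5-fold. Among the following were AGACG with 175, then GAACG with 173 and CGACT with 170, at 24.2-fold, 27.8-fold and 23.6-fold. Less frequent were GTACA with 141, TTACT with 139, GAATT with 89 and ACACT with 84, at 6.08-fold, 4.30-fold, 2.55-fold and 2.08-fold. The remaining 3 of the top 16 ended in ATC: CCATC with 192 members, CTATC with 148 and TCATC with 137, at 3.63-fold, 5.52-fold and 2.78-fold. These 16 held 52.0% of the members (50.9% to 53.1%), and 13 of them were 1 base away from DRACH.

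The 5-mers also differed in how often one list repeated the other. The shares given at the opening, 27.6% and 8.23%, were over 28920 cerebellum and 96794 cerebrum sites. Since the rule used this sharing, the values are descriptions. For cerebellum sites 1 base from DRACH the share was 37.5% (36.7% to 38.4%), and for those 2 bases away 18.4% (17.7% to 19.2%), while for cerebellum DRACH sites it was 81% (80.6% to 81.3%). At 3 and 4 bases away the share was 20.6% (19.4% to 21.8%) and 15.9% (12.8% to 19.5%). For single 5-mers it reached 83.4% for GGACG and 74.0% for GTACT, and it was 68.0% for GGATT but 26.9% for CCATC and 19.9% for TCATC. In the other direction, 41.1% of the cerebrum GTACT sites were in the cerebellum list, 37.0% of the GGACG sites and 8.40% of the TCATC sites. Absence from a list does not tell an unmethylated site from one that was unexpressed or thinly covered.

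Outside the 5-mer, members 1 base from DRACH more often had A at 4 bases before the called A and T at 4 bases after it. The A was present in 47.8% of them (46.5% to 49.2%), against 29.04% of uncalled adenosines of the same kind nearby and 41.3% of shared DRACH sites. The T was present in 55.2% (53.8% to 56.6%), against 27.3% and 44.1%. Both shares exceeded those of shared DRACH sites, by 6.57 points (5.10 to 8.03) and 11.1 points (9.68 to 12.6), on 19 of 19 autosomes each. Where the only mismatch was the base directly after the A, they were lower, at 39.9% and 47.1%, than where it was the base directly before it, at 53.8% and 56.7%. Members with 2 or more mismatches had the A in 19.2% (17.8% to 20.7%), below the 27.3% of their uncalled neighbours. They had the T in 37.5% (35.8% to 39.3%), above the 26.8% of those neighbours, so T was more frequent in both classes of members. Within the 5-mer, T at the last base stood in 78.6% of the members whose only mismatch was directly before the A, against 29.2% of the matching uncalled adenosines. It stood in 87.0% of those whose only mismatch was the first base, against 26.8%. G at the first base stood in 65.5% of those whose only mismatch was the last base, against 25.4%.

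The members fell into exclusive classes that account for all 7969. The 5022 with 1 mismatch form 4 of them, by its position. Of the 2947 with 2 or more, 117 lay in a tRNA or small RNA gene, 119 others in sequence matching the library adapter, and 711 others at the A of ATC. A further 224 lay in a 31-mer that recurs in the genome once A is read as G, and 1776, or 22.3% of all members, had none of these features.

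Position along transcripts separated near misses from distant ones. Among the members the 3′ UTR held 36.6% (35.6% to 37.7%) and the CDS 31.9% (30.9% to 32.9%), while 2.72% were in the 5′ UTR. Exons of other transcripts held 12.8%, introns 8.68% (8.09% to 9.32%), regions outside genes 4.73% and regions antisense to a gene 2.48%. Members with 1 mismatch were in the 3′ UTR in 43.9% and in the CDS in 38.2% of cases, with 2.79% in introns. For members with 2 or more mismatches these values were 24.2%, 21.2% and 18.7%. The difference was 19.8 points in the 3′ UTR (17.7 to 21.8), 17.04 points in the CDS (15.02 to 19.01) and -15.9 points in introns (-17.5 to -14.5), each on 19 of 19 autosomes. Shared DRACH sites had 52.9% in the 3′ UTR, and the single-mismatch members differed from them by -8.96 points (-10.4 to -7.498) on 19 of 19 autosomes. In the CDS the single-mismatch members and the shared DRACH sites differed by 1.22 points (-0.203 to 2.65), with this direction on 11 of 19 autosomes. Sites outside DRACH in a single list lay in introns in 48.8% (cerebellum) and 42.4% (cerebrum) of cases, 40.1 and 33.7 points above the members. Antisense to a gene they had 0.649% (cerebellum) and 0.669% (cerebrum), below the 2.48% of the members on 19 of 19 autosomes each. Outside genes they had 3.2% and 2.62%, below the 4.73% of the members on 16 and 18 of 19 autosomes. Shared DRACH sites had 0.344% antisense to a gene and 1.06% outside genes.

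**Figure D2:**
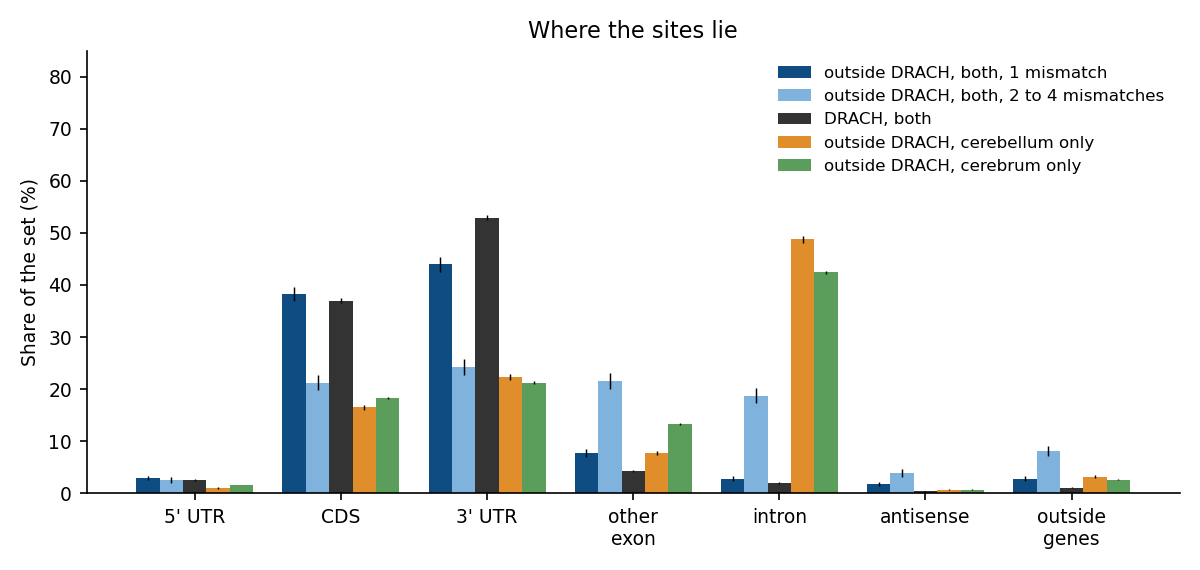
Share of each set of sites (y axis, %) by region of the gene model (x axis), with 95% Wilson intervals. Members with 1 mismatch have 38.2% in the CDS, near the 37.0% of the shared DRACH sites, but 43.9% against 52.9% in the 3′ UTR and 2.79% against 1.95% in introns, while sites listed in a single library have 48.8% and 42.4% there.

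Within 200 nt of the stop codon lay 1139 of the 5680 members on exons of coding transcripts, or 20.1% (19.03% to 21.1%), against 7.27% of the uncalled adenosines outside DRACH of the same transcripts. For members with 1 mismatch the share was 23.2% (21.9% to 24.4%), a 3.18-fold excess, and for those with 2 or more it was 10.6% (9.14% to 12.4%), a 1.46-fold excess. The difference of 12.5 points (10.4 to 14.5) had this direction on 18 of 19 autosomes. Shared DRACH sites had 22.1% in this window, 2.75-fold over the uncalled DRACH adenosines of their transcripts. In bins of 50 nt, members with 1 mismatch were most enriched between 50 and 100 nt past the stop, with 189 sites at 4.97-fold. In that bin shared DRACH sites stood at 4.53-fold, and members with more mismatches at 1.52-fold with 19 sites.

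**Figure D3:**
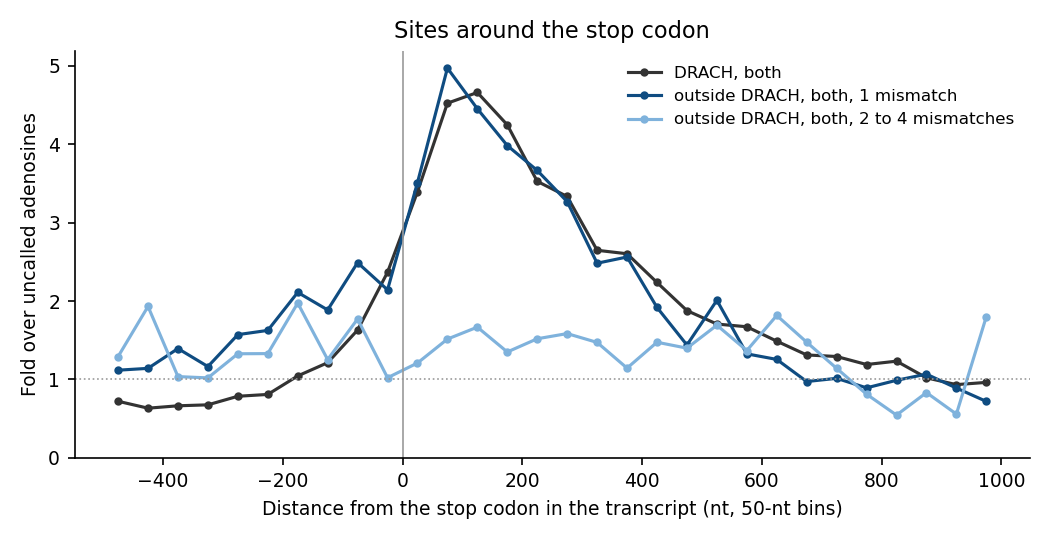
Fold of sites over uncalled adenosines (y axis) in bins of 50 nt along the transcript from the stop codon (x axis, 0 at the stop codon). Uncalled DRACH adenosines are the background for DRACH sites and uncalled adenosines outside DRACH for the others, and the dotted line marks 1. Members with 1 mismatch peak at 4.97-fold between 50 and 100 nt, and DRACH sites at 4.66-fold between 100 and 150 nt. Members with 2 to 4 mismatches stay below 2-fold.

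Members with 1 mismatch were sparse near exon junctions. On transcripts with 2 or more exons, 8.16% of the members with 1 mismatch lay within 100 nt of a junction (7.36% to 9.03%), 0.268-fold the share of uncalled adenosines, which was 30.4%. For members with 2 or more mismatches it was 35.5% (33.0% to 38.0%), 1.17-fold that share, and for shared DRACH sites 6.21%. The classes differed by -27.3 points (-30.0 to -24.7) on 19 of 19 autosomes. Members whose only mismatch was the base directly after the A were near junctions in 14.2% (12.3% to 16.4%), against 5.61% to 6.42% where the mismatch lay elsewhere. Among members with 2 or more mismatches, the ATC class had 48.5% near junctions (42.5% to 54.5%), the adapter class 48.8% (38.3% to 59.4%) and the class with none of the features 33.7% (30.8% to 36.8%). The last exon held 71.6% of the members with 1 mismatch and 55.9% of the rest, and long exons of over 400 nt other than the last held 23.3% and 10.8%. Only 37 members lay within 2 nt of a junction, and 1 of these becomes DRACH when the 5-mer is read across it.

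Members with 1 mismatch also lay close to canonical sites. A DRACH site of either list was within 50 nt of 60.6% of those on exons of coding transcripts (59.1% to 62.1%), against 18.6% of the uncalled adenosines of the same kind in the same transcripts. For members with 2 or more mismatches the share was 15.6% (13.8% to 17.6%), against 18.7%. Within 10 nt the shares were 14.05% and 5.32%, against 5.20% and 5.28%. For single-list sites outside DRACH on such exons, 27.8% (cerebellum) and 23.1% (cerebrum) had a DRACH site within 50 nt.

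Distances between members showed 2 peaks, at 6 nt with 257 pairs and at 2 nt with 198, against 49 at 5 nt, 40 at 7 nt and 78 at 3 nt. Shared DRACH sites, which cannot lie closer than 4 nt, had 329 pairs at 6 nt and 263 at 5 nt among 38701 sites. Per 100 sites this is 3.23 pairs at 6 nt for the members and 0.850 for shared DRACH sites. The 508 members in 6-nt pairs lay at the A of ATC in 66.5% (62.3% to 70.5%), against 7.08% of other members, and in introns in 45.5%, against 6.18%. The preferred distance of 6 nt was known from earlier results of these data.

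**Figure D4:**
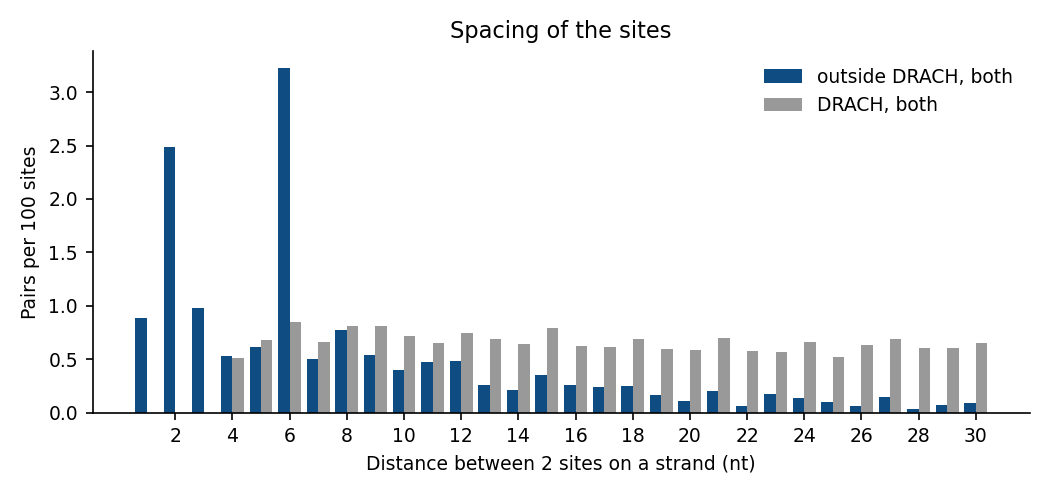
Pairs of sites on a strand per 100 sites (y axis) by the distance between them (x axis, nt). Shared sites outside DRACH reach 3.23 at 6 nt and 2.48 at 2 nt, and shared DRACH sites stay below 1 at each distance.

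The ATC members came from sequence poor in G. Of all members 866, or 10.9% (10.2% to 11.6%), were the A of ATC, against 5.85% of uncalled adenosines outside DRACH nearby, and 405 of the 866 were in introns. Among the 718 with 2 or more mismatches, G made up 11.5% of the bases from 3 to 15 nt on either side, against 19.2% at other members with as many mismatches. C made up 35.3%, against 25.96%. Another ATC stood exactly 6 nt away in 66.6% of the 866. The 2 longest rows at steps of 6 nt were 4 members each, in introns of Dock4, a Rac activator, and Astn1, a neuronal adhesion protein. They are shown with the called adenosines in capitals.
Dock4, intron, chr12:40543144-40543173, plus strand: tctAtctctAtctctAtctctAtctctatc
Astn1, intron, chr1:158385714-158385743, plus strand: cctAtccctAtccctAtccctAtccctatc
The 31-mer around the first called A of the Dock4 row occurs at 2591 places in the genome, so its reads may come from elsewhere, while that of the Astn1 row occurs once. The windows of 50 nt with the most members were these 2 introns, with 5 members and no DRACH site each. Then came the 3′ UTR of Foxp1, which encodes a forkhead transcription factor, with 4 members, of which 2 were GTACT and 2 were GGATT, beside 1 DRACH site. A window in the CDS of Sobp also held 4 members. In the CDS of Vcpip1, the first in chromosome order of the windows with 3, these were CAACT once, GCACT once and GTACT once.

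Part of the pairs at 2 nt lay in sequence that matches the 5′ adapter of the libraries. Of the members, 136, or 1.71% (1.44% to 2.02%), were covered by 8 bases that are also in the 26 fixed bases of that adapter. On exons of coding transcripts this held for 94 members, or 1.65% (1.35% to 2.02%), against 0.180% of the uncalled adenosines outside DRACH of the same transcripts, a 9.21-fold difference. The share was 4.04% (3.39% to 4.81%) for members with 2 or more mismatches and 0.339% for those with 1. In the single-list sites outside DRACH it was 0.286% (cerebellum) and 0.670% (cerebrum). None of the 6 adenosines of the adapter stands in a DRACH 5-mer, and 1 of the 38701 shared DRACH sites matched. For the 3′ adapter 8 members matched. The called A was opposite adenosine 13 of the 5′ adapter in 58 members, 15 in 53, 7 in 13, 5 in 9 and 21 in 3, and 54 of the 198 pairs at 2 nt lay entirely in such matches. The adapter is shown with its adenosines in capitals, and the members with the bases that match it in capitals.
5′ adapter, fixed bases written as DNA: gttcAgAgttctAcAgtccgAcgAtc
Magi3, 3′ UTR, chr3:104014078-104014106, minus strand: gaagccAGTTCTACAGTCCactgccagac
Cherp, CDS, chr8:72462818-72462846, minus strand: tggaggccTTCTACAGTCCGccctcccat
Mon2, CDS, chr10:123046345-123046373, minus strand: acagctgctgCTACAGTCCGACaggtcgt
Myo10, 3′ UTR, chr15:25812953-25812981, plus strand: ttttcctaGTTCAGAGTTCTAgtctcgag
In each of these the called A is the 15th base shown. The part of the adapter in these calls was not tested.

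The METTL16 motif held 13 members at its 4th base, 5 of them in the 3′ UTR of Mat2a, which encodes the enzyme that makes S-adenosylmethionine, the methyl donor. The motif searched was TACAGANAA with A or G at N, on the site strand, in the genome sequence. Sites of a single list at this base numbered 6 (cerebellum) and 13 (cerebrum). Mat2a had no shared DRACH site and 2 DRACH sites in either list. One more member lay in the 3′ UTR of Wdr77, a partner of the arginine methyltransferase PRMT5. The motif is shown in capitals, and the called A is its 4th base.
Mat2a, 3′ UTR, 727 nt after the stop codon, chr6:72434240-72434260, minus strand: cgtaggtTACAGAGAAgcctt
Mat2a, 3′ UTR, 1690 nt, chr6:72433277-72433297, minus strand: gtgtagcTACAGAGAAaccag
Mat2a, 3′ UTR, 1805 nt, chr6:72433162-72433182, minus strand: gcgtaagTACAGAGAAgccat
Mat2a, 3′ UTR, 1916 nt, chr6:72433051-72433071, minus strand: ggtgtccTACAGAAAAacctt
Mat2a, 3′ UTR, 2024 nt, chr6:72432943-72432963, minus strand: ggtgtggTACAGAGAAgccag
Wdr77, 3′ UTR, 2028 nt, chr3:105968022-105968042, plus strand: ggattgtTACAGAGAAatctg
U6 copy Gm26107, chr3:137067924-137067944, plus strand: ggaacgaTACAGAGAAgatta
All 5 Mat2a positions were in the eighth and last exon. The other motif members lay in Gm25609, Gm26107, Gm24490, Gm25380 and Gm22543 and at loci assigned to Med23 and Eny2. At Med23 and Eny2, RefSeq places a U6 copy. RefSeq lists 658 U6 copies on the autosomes, 8 with a member, and in 6 of these the called A was base 43 of the copy. The 31-mer of the Gm26107 copy occurs at 166 places in the genome, so the copy a read came from is uncertain.

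Other small RNAs carried members at fixed positions as well. RefSeq small nuclear RNA genes held 28 members, 7 of them in U2 copies, and in 4 of these the called A was base 30, the base that METTL4 is known to methylate. These 4 copies, Gm22973, Gm23971, Gm25360 and Gm25939, share 1 sequence, whose 31-mer occurs at 20 places, and are counted by position rather than by source. Both members in U6atac copies were at base 26. The 7 members in U1 copies were at 7 different bases.
U2 copy Gm25939, base 30 in capitals, chr1:72255027-72255047, plus strand: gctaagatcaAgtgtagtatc
Transfer RNA genes held 58 members in 48 of 386 annotated genes, with no shared DRACH site. The called A was the 16th base from the 3′ end of the gene, in the T loop, in 44 of them, where tRNAs are known to carry N1-methyladenosine. It directly followed the anticodon in 12, where tRNAs with anticodons ending in U are known to carry N6-threonylcarbamoyladenosine, and in 11 of these 12 the anticodon ended in T. In 9 genes both places were listed. Single-list sites outside DRACH were also found there, with 4 (cerebellum) and 32 (cerebrum) at the T-loop base. Directly after the anticodon they numbered 0 (cerebellum) and 8 (cerebrum). One member was at the ninth base of a tRNA-Asp gene and 1 elsewhere. The examples have the called A as the last capital, at the end of the T-loop sequence or directly after the 3 bases of the anticodon.
tRNA-Arg n-TRcct1, T loop, chr6:38533978-38533998, plus strand: tgtggGTTCGAgtcccatctg
tRNA-Arg n-TRcct1, anticodon, chr6:38533957-38533977, plus strand: ttggcctCCTAagccagggat
tRNA-Met n-TMcat16, T loop, chr15:57975988-57976008, minus strand: cgtgaGTTCGAtcctcacacg
tRNA-Met n-TMcat16, anticodon, chr15:57976009-57976029, minus strand: tcagtctCATAatctgaaggt
The bases up to and including the called T-loop A read GTTCNA, for any base at N, in 40 of the 44. For 31 of the 58 the 31-mer has another exact copy. RefSeq snoRNA genes held 4 members, miRNA genes 1 and rRNA genes none, the annotated rRNA being 60 genes.

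Starts of coding transcripts held few members. Within 5 nt of the first base of a coding transcript lay 11, or 0.138% (0.0771% to 0.247%), against 0.0775% of shared DRACH sites (0.0543% to 0.111%), and the intervals overlap. Around the starts of transcripts of any kind lay 49 members, or 0.615% (0.465% to 0.812%), against 74 shared DRACH sites, or 0.191% (0.152% to 0.240%), and these intervals do not overlap. For single-list sites outside DRACH the shares were 0.215% (0.161% to 0.287%, cerebellum) and 0.254% (0.223% to 0.290%, cerebrum). These starts include those of small RNA genes, and uncalled adenosines were not counted there. Single-list sites outside DRACH stood at the first base itself in 6 of 45 (cerebellum) and 40 of 226 (cerebrum) cases. Of the 74 DRACH sites 1 stood there, and of the 49 members 8. Among the coding transcripts, the called A was the first base in Yod1, a deubiquitinase gene, and in Ubap2l. It lay 2 nt downstream of the first base in Ehmt1, 2210408I21Rik and Tuba1a and 3 nt downstream in Gapvd1 and Sh3gl2. In Nectin3, Ice1 and Slmap it lay 2, 4 and 5 nt upstream. On the longest complete coding isoform, the called A lay in the CDS in Ehmt1, Gapvd1, Ice1, 2210408I21Rik and Nectin3. In Ubap2l it lay in an exon of another transcript. Transcripts annotated with an incomplete 5′ end were not left out, so some of these starts may lie inside a longer transcript.

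Repeat-masked sequence held 16.4% of the members (15.6% to 17.2%), 10.1% of those with 1 mismatch and 27.04% of the rest, against 17.7% of the uncalled adenosines nearby and 8.002% of shared DRACH sites. A 31-mer around the site that occurs more than once in the genome was found for 5.77% of the members, and for 7.60% once A was read as G, as in GLORI reads. For shared DRACH sites these values were 5.19% and 6.42%. For single-list sites outside DRACH they were lower, at 3.89% and 5.63% (cerebellum) and 3.65% and 5.48% (cerebrum). Runs of 4 or more adenosines held the called A in 2.52% of the members, against 8.45% (cerebellum) and 7.70% (cerebrum) of single-list sites. The predicted probability of being unpaired was 0.580 on average at the members and 0.584 at uncalled adenosines outside DRACH within 20 nt, a difference of -0.00315 (95% interval over sites -0.0116 to 0.00532). It was -0.0162 for members with 1 mismatch (-0.0270 to -0.00544), 0.0193 for the others (0.00559 to 0.0330) and -0.0367 for shared DRACH sites (-0.0405 to -0.0329).

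The members were spread over 3712 genes, 3370 of them protein-coding. Of these genes, 2070 had 1 member, 1371 had 2 to 4 and 271 had 5 or more, and 575 members had no gene. A shared DRACH site was also present in 2819 of the 3712 genes, which is 75.9% of the genes with a member and 41.3% of those with a shared DRACH site. The number of members per 100 shared DRACH sites ranged from 18.7 to 23.3 over the autosomes. In bulk lists, the expression of a gene and the methylation of its sites cannot be told apart.

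Single genes held up to 22 members. Ptprz1, a receptor tyrosine phosphatase of radial glia, had 22 members, all with 1 mismatch and 20 of them in the CDS, beside 66 shared DRACH sites. Grm5 had 17, of which 16 had 1 mismatch and 10 were in the CDS. The postsynaptic adhesion gene Nlgn1 also had 17, 12 with 1 mismatch. Ptprd, a presynaptic receptor phosphatase, had 16 and Lrfn5, a synaptic adhesion gene, 13. All 12 members of Flrt2, an axon guidance and adhesion gene, lay in the CDS with 1 mismatch each, and Csrnp3, Xkr4 and the zinc finger gene Zfp292 likewise had 12 members with 1 mismatch each. Slc8a1, a sodium-calcium exchanger, and Fat3, an atypical cadherin, had 12 each, 7 and 10 of them in the CDS. In a further group of the 15 genes with the most members, most lay in introns. Nrg3, a neuregulin, had 16 members, 13 of them in introns and 3 with 1 mismatch. Fgf14, an intracellular FGF homologue that binds sodium channels, had 15, of which 11 were in introns. Tenm2 had 12, with 7 in introns. The 12 members of D10Wsu102e were all in the 3′ UTR, 3 with 1 mismatch, beside 3 shared DRACH sites.

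**Figure D5:**
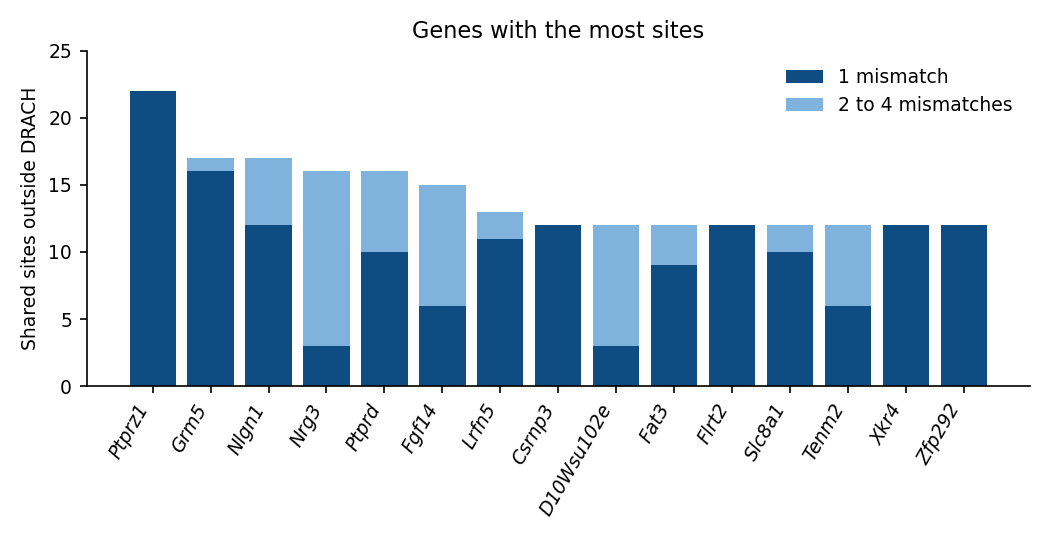
Number of shared sites outside DRACH (y axis) in the 15 genes with the most (x axis), split by the number of mismatches to DRACH. Ptprz1 has 22, all with 1 mismatch, while 13 of the 16 in Nrg3 have 2 to 4 mismatches.

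Lists of genes gave different ratios of members to canonical sites, as descriptions. Over all genes there were 19.4 members per 100 shared DRACH sites. A member was present in 3712 of the 15131 genes with any site in either list. Genes with any site numbered 24 for synaptic adhesion, 22 for m6A enzymes and readers and 15 for long noncoding RNAs. They numbered 25 for transcription and chromatin and 20 for the cytoskeleton. Synaptic adhesion genes had 24.1, with 134 members in 20 of 26 genes. Among those with 5 or more were Nlgn1, Ptprd and Tenm2 with the values above, Nrxn3 with 10, Adgrl3 with 9, Ncam1 with 7, Lrrtm4, Tenm3 and Cadm1 with 6, and Adgrl2 and Cntnap2 with 5. All 6 in the cell adhesion gene Cadm1 were in introns. Genes of m6A enzymes and readers had 20.8 per 100, with 32 members in 11 of 23 genes. Cbll1, which encodes a subunit of the methyltransferase complex also called HAKAI, had 5, all with 1 mismatch, and Mat2a had the 5 in METTL16 motifs. Long noncoding RNAs had 15.6, with 20 members in 7 of 16 genes, among them Kcnq1ot1 with 7 and Malat1 with 5. Transcription and chromatin genes had 12.2, with 69 members in 22 of 25 genes, led by Kmt2a and Arid1b with 8 each, Arid1a with 7, and Zfhx3, Zfhx4 and Meis2 with 5 each. Cytoskeletal genes of neurons had 7.84, with 29 members in 12 of 21 genes and 51 shared DRACH sites against 1 member in Map1a. Map1b, which encodes a microtubule-associated protein, had 7 members beside 52 shared DRACH sites. Map1a is named for contrast, after its values were seen.

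No DRACH site of either list was present in 508 genes with a member, which held 657 members. Of these genes 274 were protein-coding and 38 small nuclear RNA genes. The ones with the most members were the olfactory receptor gene Olfr639 with 6, Mrpl1, a mitochondrial ribosomal protein, and Vmn2r53, a vomeronasal receptor, with 5 each, and Ndufa6, Styx, Tubgcp4 and Vmn1r236 with 4 each. The median number of places of the 31-mer was 65.5 in Olfr639, 4 in Vmn2r53 and 24.5 in Vmn1r236, so the origin of these reads is uncertain, while in Mrpl1, Ndufa6 and Tubgcp4 it was 1. Members of Ndufa6, a subunit of respiratory complex I, included a pair in adapter-matching sequence.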

How the data were processed

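The authors mapped GLORI reads to mm10 and to a PWK version of it, ran GLORI-tools on each, merged the calls of a library and required over 8 reads and a rate over 0.1 at a site. The deposited lists give 1 position, strand and identifier per site (79355 for the cerebellum, 188295 for the cerebrum, 76905 and 182625 on autosomes) and no rate or count. The unit of the deposited values is thus another one, a genomic position, and depth is unknown. Members and gene lists were chosen with earlier results of these data known. Positions were looked up in GRCm38, the build mm10 names, and regions taken from GENCODE M21 by the longest complete coding isoform covering a site. Isoforms with an early stop codon were not excluded, so some 3′ UTR labels may lie in internal exons. Small RNAs and tRNAs came from the RefSeq annotation of GRCm38.p6, and adapters from the oligonucleotides the study lists. Uncalled adenosines were those of the reference absent from both lists. Shares have 95% Wilson intervals and differences Newcombe intervals; no test was run. Named items were the 16 commonest 5-mers, the 12 genes with the most members (15 with ties), the 6 without DRACH sites with the most (7 with ties), list genes with 5 or more members (some are not reported here), METTL16-motif members, the first 10 near starts in chromosome order, the 5 densest windows, and examples of 5-mers. The examples of introns, adapter matches, U2, U6 and tRNA genes, the adapter search and the classes were chosen after values were seen. Alternatives were the spliced 5-mer, sharing within 1 nt, no repeat-masked sites, 1 member per cluster, removal of the 10 genes with the most members, the shortest isoform and other windows and backgrounds. Pairing probabilities came from ViennaRNA 2.7.2 with 50 nt on either side. Python 3.11.15, pysam 0.24.0, numpy 2.4.6, pandas 2.3.3, numba 0.67.0 and matplotlib 3.10.9 were used, and the steps were tested on simulated data. Chromosome 18 sites were counted but their sequence is not shown.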

Additional observations from a re-analysis of the deposited data

Results flagged for a closer look

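Chromosome X lay outside the autosomes that the members were drawn from. It held 269 adenosines outside DRACH in both lists. They were not analysed here, and no comparison above includes them.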

How the results depend on the processing

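The junction and DRACH-site shares below take members of all mismatch classes together. Their main values were 15.03% within 100 nt of a junction and 38.2% within 50 nt of a DRACH site. Differences between the mismatch classes were not recomputed. Without repeat-masked sites, the single-mismatch share was 67.7% and its difference from uncalled adenosines 30.6 points. The share within 100 nt of a junction was then 16.2%, that within 50 nt of a DRACH site 41.9% and the ATC share 9.59%. With 1 member per cluster of 10 nt these values were, in the same order, 66.4%, 28.9 points, 13.6%, 40.9% and 9.19%. The 3′ UTR then held 37.8%, and by construction 0 pairs stood at 6 nt. Leaving out members whose 31-mer recurs once A is read as G, chosen after seeing the data, gave a single-mismatch share of 64.3%, a difference of 26.8 points and 13.2% in repeat-masked sequence. A stop codon window of 400 nt held 34.2%, a junction window of 50 nt 9.43%, and DRACH sites of both lists were within 50 nt of 29.9%. In 71 of 91 recomputations, those without adapter matches (also chosen after seeing the data) included, shares stayed within the interval and counts within 1.5 times the value given. The intron share moved from 8.68% to 7.52% and 7.60% without repeat-masked sites and with 1 member per cluster. Leaving out libraries was not possible with 1 per tissue. No paired analysis was possible because each tissue has a single library and no test was run. The limits are the unknown depth, the filters behind both lists, reference 5-mers that ignore PWK bases, 31-mers with several copies, and intervals that treat neighbouring sites as independent.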
